A study of Homo sapiens with 9 samples.

Results

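The ERBB receptor tyrosine kinases (EGFR, ERBB2, ERBB3 and ERBB4), the genes that lie next to ERBB2 in the ERBB2 amplicon of chromosome 17 (STARD3, TCAP, PGAP3, MIEN1 and GRB7) and the fibroblast growth factor receptor FGFR4 were examined in RNA sequencing data of cells with silenced LINC00673, a long noncoding RNA. The genes are given by their symbols, a list drawn up with earlier results of these data known, and all 10 were found among the 19930 genes of the table. The cells are labelled MDA-MB-453, an established human breast cancer cell line. They were transfected with Lipofectamine and collected 48 h later, with 3 libraries in each of the groups si-NC (a control siRNA), si-LINC00673-1 and si-LINC00673-2. The siRNA number was taken from the titles of the libraries, and the labels do not say whether the 3 libraries of a group came from separate cultures, so the P values measure the spread between libraries only. Expression was measured as FPKM, the fragments of a gene scaled to transcript length and to the number of mapped fragments. The smallest differences between FPKM values of scarce genes gave an estimated depth of 23.4 to 27.25 M fragments per library.

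ERBB receptors sit in the cell membrane, bind growth factors of the EGF family (ERBB2 binds none that is known) and signal as pairs. ERBB3 has a weak kinase and relies on a partner, for which ERBB2 is the preferred one, and this pair feeds the PI3K and AKT pathway. In breast cancers with amplified ERBB2, the neighbouring genes are often gained on the same segment. FGFR4 is a receptor for FGF19 and is often expressed in luminal and ERBB2-enriched breast cancers.

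The label of the cell line was compared with its markers. Of 10 luminal epithelial markers, 6 had a mean of at least 1 FPKM in si-NC, with KRT8 at 3617, KRT18 at 2433, KRT19 at 1180 and EPCAM at 289 FPKM. FOXA1, a pioneer factor of luminal breast cells that MDA-MB-453 is known to express, went against the label. It was listed at 0 in 7 of 9 libraries and reached at most 0.04 FPKM. HNF4A, a transcription factor of liver and gut epithelium, lay between 42.3 and 54.4 FPKM, and VIL1, a protein of the brush border, between 80.7 and 119.9 FPKM (both chosen after their values were seen). ERBB2 stood at 17.6 ± 0.304 FPKM (SD, n = 3) in si-NC. Copy number was not measured in these libraries, and "amplicon" is used below only as the name of the segment. Of the markers of other cell types (PTPRC, COL1A1, COL3A1, PECAM1 and HBB), only COL1A1 reached 1 FPKM, and their summed level was 3.57 to 4.21 FPKM in si-NC, 5.50 to 5.96 in si-LINC00673-1 and 5.58 to 7.18 in si-LINC00673-2. PTPRC and HBB were at 0 in si-NC. The summed luminal markers were 7287 to 7922, 6149 to 6787 and 6290 to 6951 FPKM, and the part of either sum in the results below was not tested.

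The 6 amplicon genes lie in a row on chromosome 17 (GRCh37). STARD3 (gene ID 10948) spans 37793333 to 37820454 on the plus strand, TCAP (8557) 37821599 to 37822807 on the plus strand and PGAP3 (93210) 37827375 to 37844323 on the minus strand. ERBB2 (2064) spans 37844337 to 37884915 on the plus strand, MIEN1 (84299) 37884753 to 37886816 on the minus strand and GRB7 (2886) 37894154 to 37903538 on the plus strand. The outermost annotated starts of PGAP3 and ERBB2 therefore lie head to head, with 13 bases between them, and the ends of ERBB2 and MIEN1 share 163 bases on opposite strands. The sources used here do not say whether fragments were counted by strand, so fragments from those 163 bases could have been assigned to either gene. The other members lie elsewhere: EGFR (1956) on chromosome 7 from 55086714 to 55275773, ERBB3 (2065) on chromosome 12 from 56473809 to 56497291, FGFR4 (2264) on chromosome 5 from 176513873 to 176525143, all on the plus strand, and ERBB4 (2066) on chromosome 2 from 212240442 to 213403352 on the minus strand.

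Promoters (250 bases before to 50 bases after the gene start, RefSeq, GRCh38.p14) are shown for ERBB2, FGFR4 and EGFR, the receptors whose levels fell or rose below, as chr17:39687844-39688143, chr5:177086665-177086964 and chr7:55018767-55019066, each on the plus strand. Capitals mark GC boxes (GGGCGG or its reverse complement CCGCCC) and ETS cores (CCGGAA or TTCCGG).
ERBB2: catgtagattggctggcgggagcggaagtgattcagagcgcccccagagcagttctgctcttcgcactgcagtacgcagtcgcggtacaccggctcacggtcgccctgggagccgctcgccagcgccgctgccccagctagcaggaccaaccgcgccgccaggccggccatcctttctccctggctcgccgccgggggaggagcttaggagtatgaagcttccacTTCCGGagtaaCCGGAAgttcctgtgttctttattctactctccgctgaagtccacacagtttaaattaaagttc
FGFR4: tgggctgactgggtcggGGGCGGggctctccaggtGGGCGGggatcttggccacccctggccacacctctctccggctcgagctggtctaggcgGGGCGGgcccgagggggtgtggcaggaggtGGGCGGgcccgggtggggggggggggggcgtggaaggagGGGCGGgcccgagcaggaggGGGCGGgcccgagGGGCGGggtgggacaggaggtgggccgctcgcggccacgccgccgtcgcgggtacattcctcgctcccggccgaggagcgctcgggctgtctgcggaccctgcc
EGFR: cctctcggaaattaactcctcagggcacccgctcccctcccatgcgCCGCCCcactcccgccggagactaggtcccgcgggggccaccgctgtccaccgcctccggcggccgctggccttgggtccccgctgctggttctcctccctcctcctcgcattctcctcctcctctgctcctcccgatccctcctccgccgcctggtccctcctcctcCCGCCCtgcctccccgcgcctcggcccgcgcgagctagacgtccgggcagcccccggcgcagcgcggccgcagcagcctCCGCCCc
The ERBB2 window held 2 ETS cores on opposite strands and no GC box, the FGFR4 window 7 GC boxes and no ETS core, and the EGFR window 3 GC boxes and no ETS core. Of 35116 promoters of this length, 45% held a GC box and 17.2% an ETS core on either strand. A match of letters is a description and not a binding site. The ERBB2 window is that of the outermost start and shares 136 bases with the promoter window of PGAP3, while the principal ERBB2 transcript of GENCODE release 29 starts 11986 bases downstream, at 39700080 (GRCh38). The 2 principal FGFR4 transcripts start 29 bases and 1 base before the start used here, and the principal EGFR transcript 84 bases after it. STARD3, MIEN1, PGAP3 and ERBB4 also matched the RefSeq table, and ERBB3, GRB7 and TCAP did not.

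In si-NC the members spanned the whole range of expression. GRB7 was the highest at 67.8 ± 3.25 FPKM (SD, n = 3), above 95.13% of all genes, followed by ERBB3 at 48.2 ± 1.70, FGFR4 at 31.9 ± 1.01, MIEN1 at 27.3 ± 1.40, STARD3 at 19.6 ± 1.52 and ERBB2 at 17.6 ± 0.304. STARD3 and ERBB2 were neighbours in this order whose libraries did not overlap, 17.9 being the lowest of STARD3 and 17.8 the highest of ERBB2, but the gap was smaller than the SD of STARD3. PGAP3 at 3.82 ± 0.231 lay near the middle of all genes, above 51.72% of them. The libraries of EGFR at 0.813 ± 0.199 and TCAP at 0.62 ± 0.0173 FPKM did not overlap either, 0.67 being the lowest of EGFR and 0.63 the highest of TCAP. This gap was smaller than the SD of EGFR. ERBB4 was listed at 0 in each si-NC library. The genes of the amplicon were thus far apart in level, with 0.217 FPKM of PGAP3 and 3.84 FPKM of GRB7 for each FPKM of ERBB2.

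Among the receptor tyrosine kinases, 54 of the 58 in the list were in the table, and 28 had at least 1 FPKM in si-NC. EPHA2, an ephrin receptor, was the highest at 126.9 FPKM and PTK7, a pseudokinase of WNT signalling, came next at 67.0 FPKM. ERBB3 ranked 3, EPHB6 ranked 4 at 33.0 FPKM, FGFR4 ranked 5 and ERBB2 ranked 9. EGFR was at rank 29, far below ERBB2 and ERBB3. With si-LINC00673-1, ERBB3 ranked 4, FGFR4 7 and ERBB2 11, and with si-LINC00673-2 their ranks were 5, 7 and 11. ERBB2, ERBB3 and FGFR4 together held 18.04% of the summed FPKM of the receptor tyrosine kinases in si-NC, 13.21% with si-LINC00673-1 and 10.61% with si-LINC00673-2. These shares use FPKM without correction for GC content and depend on the other kinases. EPHA2 reached 153.9 and 183.1 FPKM with the siRNAs, while PTK7 fell to 52.6 and 47.4 FPKM.

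**Figure D1:**
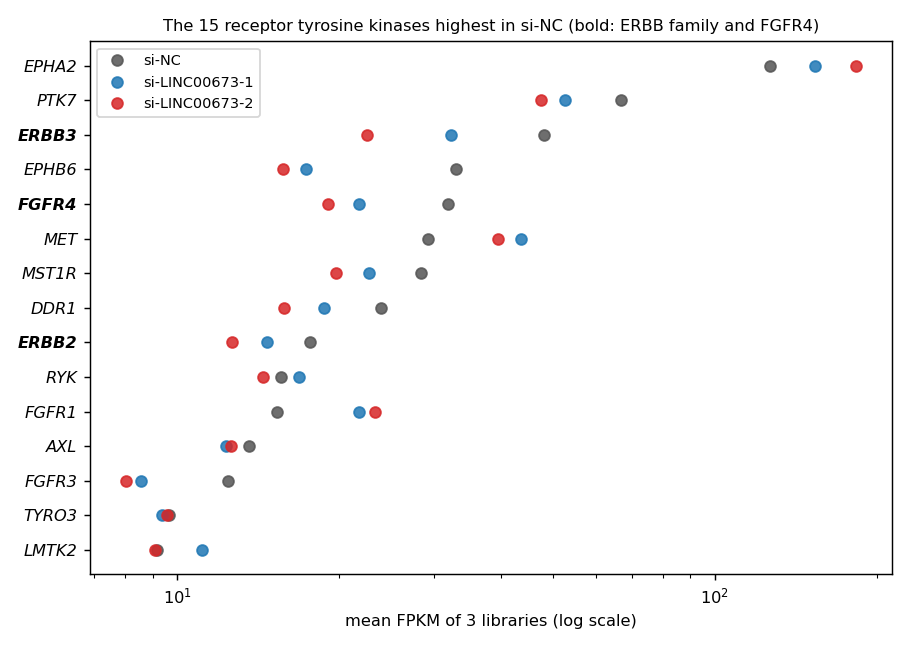
Mean FPKM of 3 libraries (log scale) for the 15 receptor tyrosine kinases with the highest level in si-NC, by group, with the ERBB family and FGFR4 in bold. ERBB3, FGFR4 and ERBB2 lie lower with both siRNAs than in si-NC, with the larger distance for si-LINC00673-2. The same holds for PTK7, EPHB6, MST1R, DDR1 and FGFR3, which are not members, while EPHA2, MET and FGFR1 lie higher.

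Silencing was compared with si-NC to ask which genes change when LINC00673 is silenced. With either siRNA, ERBB3, FGFR4 and PGAP3 fell and EGFR rose, STARD3 fell with si-LINC00673-1 and ERBB2 with si-LINC00673-2. ERBB3 kept 67.1% and 46.7% of its si-NC level, FGFR4 68.2% and 59.8%, and PGAP3 57.2% and 56.2%. EGFR reached 268% and 193% of its si-NC level. Differences were tested with limma on log2(FPKM + 1), a scale that understates the change of low genes, over the 12884 genes that averaged 1 FPKM or more in the 9 libraries, and a gene was called at a fold of at least 1.3 if its adjusted P (Benjamini-Hochberg) did not exceed 0.05. EGFR passed the filter through the siRNA groups, as its si-NC mean is below 1 FPKM, and 8 of the 10 members were tested, all but TCAP and ERBB4. With si-LINC00673-1, 4 of these were called lower and 1 higher, against 15.5% and 11% of all genes tested. With si-LINC00673-2, 4 were called lower and 1 higher, against 23% and 10.9%. The lower shares of all genes depended on scaling and GC content: for si-LINC00673-2, 67.8% of calls were lower, 53.6% once libraries were scaled to the same median ratio and 51.2% after correction for GC content. After correction for GC content, 1 tested member (ERBB3) was called lower and 1 (EGFR) higher with each siRNA, where 11.4% and 15.3% of all genes tested were called lower, so that share is near the background. The median log2 fold change of the tested members was -0.35 and -0.37, beside 0.00 and -0.10 over all genes tested, and -0.18 and -0.18 after correction for GC content. Both comparisons share the si-NC libraries.

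Counted by separation of the libraries, 7 of the 8 tested members lay below all si-NC libraries in all si-LINC00673-1 libraries (35.1% of genes tested) and 1 above (35%). With si-LINC00673-2, 5 of the 8 lay below (46.1%) and 1 above (26.9%). The exact permutation test of 3 against 3 libraries cannot give a two-sided P below 0.1, the value of each of these members.

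**Figure D2:**
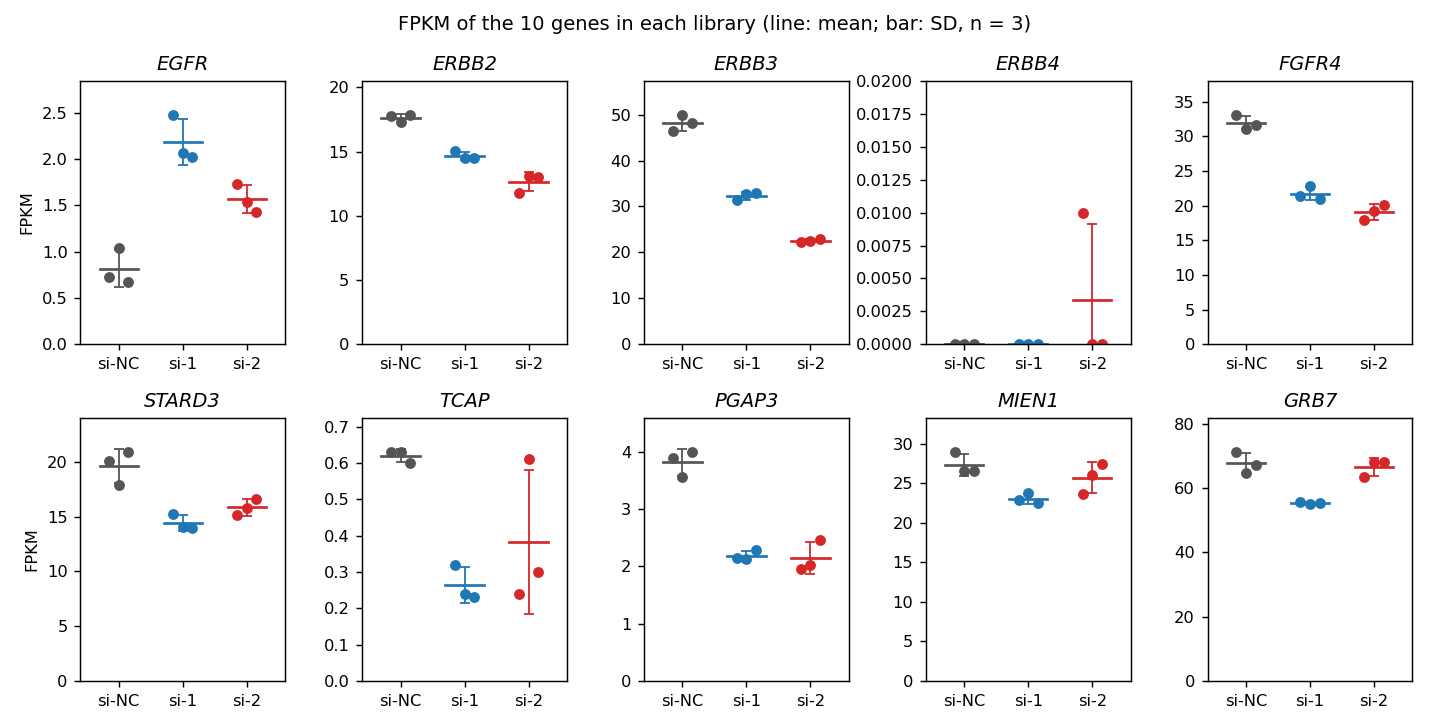
FPKM of the 10 genes in each of the 9 libraries (points), with the mean (line) and SD (bar) of 3 libraries per group; si-1 and si-2 stand for si-LINC00673-1 and si-LINC00673-2. ERBB3, FGFR4, ERBB2 and PGAP3 are lower in all siRNA libraries than in si-NC, EGFR is higher in all of them, and GRB7 with si-LINC00673-2 overlaps with si-NC.

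ERBB3, the neuregulin receptor that signals to PI3K, had the largest fall of the members with si-LINC00673-2. It measured 46.4, 49.8 and 48.2 FPKM in the si-NC libraries, 31.4, 32.6 and 32.9 with si-LINC00673-1 and 22.2, 22.5 and 22.8 with si-LINC00673-2. The 3 groups formed separate steps, with little spread within each. These steps amounted to a log2 fold change of -0.56 (95% interval -0.64 to -0.48, adjusted P = 7.85e-07, limma) for si-LINC00673-1 and -1.06 (-1.14 to -0.99, adjusted P = 7.81e-09) for si-LINC00673-2. ERBB3 was the only tested member called between the siRNAs, with si-LINC00673-2 lower by a log2 difference of -0.50 (-0.58 to -0.42, adjusted P = 1.1e-05), where 5.32% of all genes were called lower and 2.06% higher. Of all calls between the siRNAs 72% were lower, 39% after scaling by the median ratio and 46.7% after correction for GC content. The ERBB3 call held in both of these fits. Its transcripts are 52% GC, above 58.18% of genes, and its fold changes after correction for GC content were -0.57 and -1.0.

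ERBB2, the receptor known as HER2 and the target of trastuzumab, fell less than ERBB3. Its libraries measured 17.8, 17.3 and 17.8 FPKM in si-NC, 15.1, 14.5 and 14.5 with si-LINC00673-1 and 11.8, 13.1 and 13.03 with si-LINC00673-2. All 6 siRNA libraries lay below the lowest si-NC library, and the siRNA groups did not overlap either. With si-LINC00673-2 the log2 fold change was -0.45 (-0.55 to -0.35, adjusted P = 8.86e-06, limma). With si-LINC00673-1 it was -0.25 (-0.35 to -0.15, adjusted P = 0.000632), short of the fold of 1.3, and -0.13 after correction for GC content. The si-LINC00673-2 value was -0.36 after scaling by the median ratio and -0.28 after correction for GC content, and ERBB2 was not called in either. As ERBB3 fell more than ERBB2, the ratio of ERBB2 to ERBB3 rose from 0.366 ± 0.0184 in si-NC to 0.455 ± 0.0216 and 0.561 ± 0.0277 (SD, n = 3 each, exact permutation test P = 0.1 for both, the lowest possible).

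EGFR, the receptor of EGF, AREG and TGFA, was the only member that rose. It measured 0.73, 1.04 and 0.67 FPKM in si-NC, 2.47, 2.06 and 2.02 with si-LINC00673-1 and 1.73, 1.54 and 1.43 with si-LINC00673-2. Each siRNA library lay above each si-NC library. These levels correspond to an estimated 113 to 165 fragments in si-NC, 311 to 393 with si-LINC00673-1 and 210 to 265 with si-LINC00673-2, if all came from the longest transcript. The log2 fold change was 0.81 (0.61 to 1.02, adjusted P = 3.73e-05, limma) and 0.51 (0.30 to 0.71, adjusted P = 0.000742). Since EGFR passed the filter through the groups in which it is high, it was also fitted with no filter, which gave the same fold changes with adjusted P = 0.000158 and 0.00182 (limma). With 0.1 FPKM added in place of 1 FPKM the values were 1.34 and 0.89. Even so EGFR stayed the scarcer receptor, with an EGFR to ERBB2 ratio of 0.0463 in si-NC, 0.149 with si-LINC00673-1 and 0.125 with si-LINC00673-2.

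ERBB4, a further neuregulin receptor, was listed at 0 in 8 libraries and at 0.01 FPKM, about 3 fragments, in si-LINC00673-2 library 1. No comparison was made for it.

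FGFR4 fell with both siRNAs. Its values were 33.1, 31.1 and 31.6 FPKM in si-NC, 21.5, 22.8 and 20.98 with si-LINC00673-1 and 17.9, 19.2 and 20.1 with si-LINC00673-2. No siRNA library came near the si-NC range, and the siRNA groups lay close to each other without overlap. The log2 fold change was -0.53 (-0.64 to -0.42, adjusted P = 8.57e-06, limma) and -0.71 (-0.82 to -0.61, adjusted P = 8.77e-07). At 63.6%, the GC content of FGFR4 transcripts exceeds that of 93.33% of genes. After correction for GC content the fold changes were -0.17 (-0.25 to -0.10, adjusted P = 0.000947) and -0.34 (-0.42 to -0.26, adjusted P = 3.48e-06), below the fold of 1.3, so FGFR4 was no longer called. The FGFR4 to ERBB3 ratio was 0.664 ± 0.0444 in si-NC and 0.674 ± 0.032 with si-LINC00673-1 (exact permutation test, P = 0.8), and 0.847 ± 0.039 with si-LINC00673-2 (P = 0.1, the lowest possible).

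**Figure D3:**
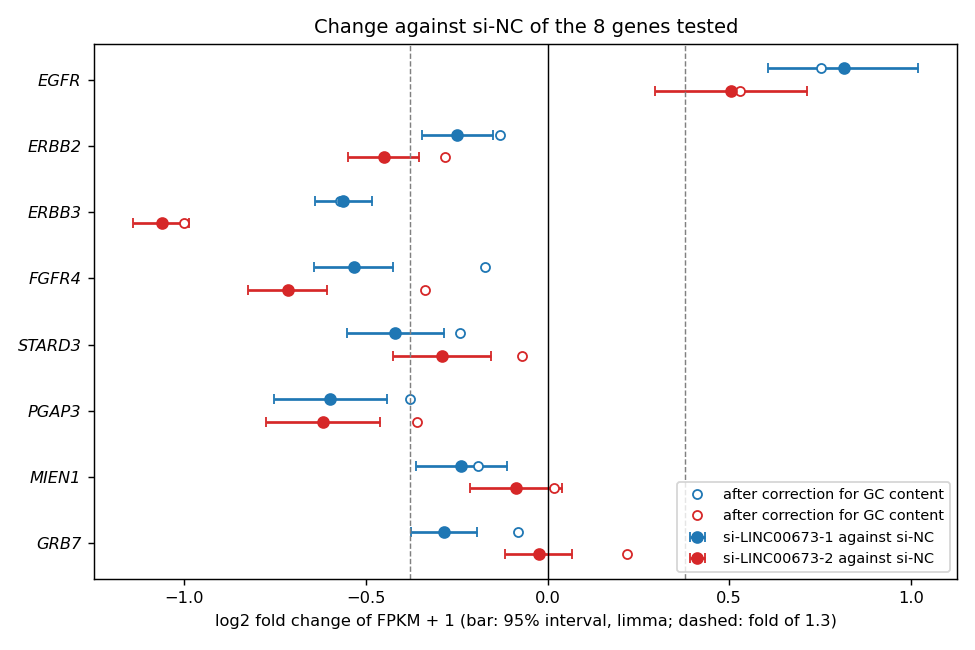
Log2 fold change of FPKM + 1 against si-NC for the 8 members tested (filled points, with 95% intervals from limma), and the same after correction for GC content (open points). Dashed lines mark a fold of 1.3. The open points of ERBB3 and EGFR stay beyond the dashed lines, while those of FGFR4, PGAP3, STARD3 and ERBB2 lie between them.

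PGAP3, an enzyme that remodels the lipid of GPI anchors, had the largest relative fall of the tested amplicon genes. It measured 3.90, 3.56 and 4.0 FPKM in si-NC, 2.14, 2.13 and 2.28 with si-LINC00673-1 and 1.95, 2.03 and 2.46 with si-LINC00673-2. Both siRNA groups lay below si-NC and overlapped with each other. The log2 fold change was -0.60 (-0.75 to -0.44, adjusted P = 4.41e-05, limma) and -0.62 (-0.77 to -0.46, adjusted P = 2.69e-05), and between the siRNAs it was -0.02 (-0.18 to 0.14). After correction for GC content (60.3% in PGAP3) the values were -0.38 and -0.36, just short of the fold of 1.3. PGAP3 and ERBB2 are neighbours whose outermost annotated starts lie 13 bases apart, and the principal ERBB2 transcript starts 11986 bases downstream. The part of this arrangement in their changes was not tested. In uncorrected FPKM the PGAP3 to ERBB2 ratio was 0.217 ± 0.00951 in si-NC, 0.149 ± 0.0079 with si-LINC00673-1 and 0.17 ± 0.0173 with si-LINC00673-2 (exact permutation test, P = 0.1 for both, the lowest possible). After correction for GC content ERBB2 changed by -0.13 and -0.28. The corrected intervals of the 2 genes overlapped with si-LINC00673-2 (-0.491 to -0.23 for PGAP3, -0.35 to -0.215 for ERBB2) but not with si-LINC00673-1 (-0.508 to -0.247 and -0.198 to -0.0627). PGAP2, which acts in the same remodelling pathway, fell with both siRNAs, from 28.7 FPKM in si-NC to 17.8 and 17.3 FPKM (log2 fold change -0.66, adjusted P = 2.3e-06, and -0.70, adjusted P = 1.02e-06). It was the 1 gene called among the 6 tested relatives of GRB7, STARD3, PGAP3 and MIEN1, whose median log2 fold change was 0.03 and -0.03. Over all genes tested, 15.5% and 23% were called lower.

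STARD3, a cholesterol transporter of late endosomes, measured 20.0, 17.9 and 20.9 FPKM in si-NC, 15.2, 14.02 and 13.96 with si-LINC00673-1 and 15.1, 15.8 and 16.6 with si-LINC00673-2. All siRNA libraries lay below si-NC. Its log2 fold change was -0.42 (-0.55 to -0.29, adjusted P = 0.000166, limma) with si-LINC00673-1 and -0.29 (-0.42 to -0.16, adjusted P = 0.00149) with si-LINC00673-2, the latter short of the fold of 1.3. The si-LINC00673-1 value was -0.38 without si-NC library 3, just short of the fold of 1.3, and -0.24 after correction for GC content, and STARD3 was not called in either. The si-LINC00673-2 value was -0.19 after scaling by the median ratio and -0.07 (adjusted P = 0.157) after correction for GC content.

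GRB7, an SH2 domain adaptor that binds ERBB2 and ERBB3, is the most abundant member. It measured 71.3, 64.8 and 67.3 FPKM in si-NC, 55.6, 55.2 and 55.5 with si-LINC00673-1 and 63.4, 68.2 and 68.2 with si-LINC00673-2. The si-LINC00673-1 libraries lay below si-NC, whereas those of si-LINC00673-2 lay within its range or just under it. The log2 fold change was -0.28 (-0.38 to -0.19, adjusted P = 0.000173, limma) with si-LINC00673-1, short of the fold of 1.3, and -0.02 (-0.12 to 0.07, adjusted P = 0.603) with si-LINC00673-2. The siRNAs differed by 0.26 (0.17 to 0.35, adjusted P = 0.000916), below the fold of 1.3. After correction for GC content the si-LINC00673-1 value was -0.08 (adjusted P = 0.0155) and the si-LINC00673-2 value 0.22 (adjusted P = 1.17e-05), so the direction of the latter turned.

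MIEN1, a membrane-anchored protein linked to cell migration, measured 28.9, 26.5 and 26.6 FPKM in si-NC, 22.9, 23.8 and 22.5 with si-LINC00673-1 and 23.6, 26.0 and 27.5 with si-LINC00673-2. Its si-LINC00673-2 libraries overlapped with si-NC, and those of si-LINC00673-1 did not. It changed by a log2 fold change of -0.24 (-0.36 to -0.11, adjusted P = 0.00419, limma) and -0.09 (-0.21 to 0.04, adjusted P = 0.189), and neither was called.

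TCAP, a sarcomere protein also named telethonin, lay below the filter and was not tested. It measured 0.63, 0.63 and 0.60 FPKM in si-NC, 0.32, 0.24 and 0.23 with si-LINC00673-1 and 0.24, 0.61 and 0.30 with si-LINC00673-2. Only si-LINC00673-1 was separate from si-NC. These values rest on an estimated 14 to 15, 5 to 7 and 5 to 13 fragments per library.

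The amplicon genes differed among themselves, and more so with si-LINC00673-2. The GRB7 to ERBB2 ratio was 3.84 ± 0.14 in si-NC, 3.78 ± 0.0717 with si-LINC00673-1 (exact permutation test, P = 0.7) and 5.27 ± 0.0933 with si-LINC00673-2 (P = 0.1, the lowest possible). MIEN1 stood likewise at 1.55 ± 0.0697, 1.57 ± 0.0598 and 2.03 ± 0.0663 FPKM for each FPKM of ERBB2. STARD3 to ERBB2 was 1.11 ± 0.0685, 0.98 ± 0.0259 and 1.25 ± 0.0428, so the siRNA groups lay on opposite sides of si-NC. Among the 20 tested neighbours on 17q12-q21 outside the amplicon, 1 was called lower and 2 higher with si-LINC00673-1 and 3 lower and 2 higher with si-LINC00673-2. Their median log2 fold change was 0.02 and -0.12, beside -0.28 and -0.29 for the 5 tested amplicon genes. Of these 5 genes, 2 were called lower with each siRNA. Over all genes tested, 15.5% and 23% were called lower, and 11% and 10.9% higher. After correction for GC content 0 of these 5 were called with either siRNA, and their median was -0.19 and -0.07, beside 0.02 and -0.03 for the neighbours. ORMDL3, a regulator of sphingolipid synthesis, was called lower with both siRNAs (-0.56, adjusted P = 3.04e-06, and -0.43, adjusted P = 1.2e-05), the second not after scaling by the median ratio (-0.33) or correction for GC content (-0.34). NR1D1, the clock repressor REV-ERB alpha, rose with both, by 1.5 and 1.91, and CDC6, which licenses replication origins, by 0.62 and 0.72 (adjusted P between 1.29e-09 and 5.64e-07 for these genes).

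**Figure D4:**
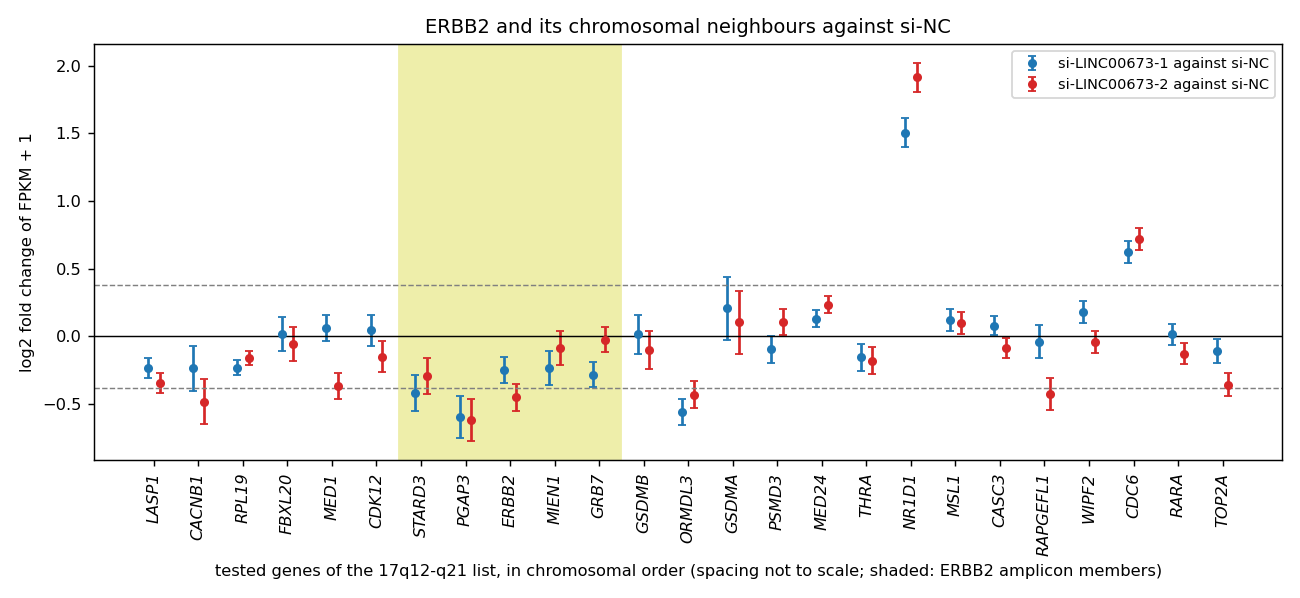
Log2 fold change of FPKM + 1 against si-NC, with 95% intervals from limma, for the tested genes of 17q12-q21 in chromosomal order, not to scale. The shaded genes are the 5 tested amplicon members, from STARD3 to GRB7, and dashed lines mark a fold of 1.3. PGAP3 is below the dashed line with both siRNAs, GRB7 and MIEN1 are not, and the highest points are those of NR1D1 outside the segment.

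Ligands of the ERBB receptors were examined next. Of 11 genes, 5 were tested, and 2 were called higher and 0 lower with each siRNA, but only AREG was called with both. For this list and each list below, the shares of all genes tested are the background. They were 15.5% lower and 11% higher with si-LINC00673-1, and 23% lower and 10.9% higher with si-LINC00673-2. The median over these 5 ligands was 0.16 and 0.32 on the log2 scale. AREG, the EGFR ligand amphiregulin, measured 20.9, 21.4 and 22.8 FPKM in si-NC, 42.9, 43.1 and 41.4 with si-LINC00673-1 and 64.0, 63.5 and 60.1 with si-LINC00673-2. It rose by 0.94 (adjusted P = 8.22e-08, limma) and 1.49 (adjusted P = 2.3e-09) on the log2 scale, so AREG and its receptor EGFR were both higher with each siRNA. AREG was higher with si-LINC00673-2 than with si-LINC00673-1 (0.55, adjusted P = 1.6e-05), while EGFR was lower (-0.31, adjusted P = 0.0225, not called).

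Of the 12 tested adaptors and effectors at the receptors, 1 was called lower and 1 higher with si-LINC00673-1, and 3 lower and 1 higher with si-LINC00673-2 (median 0.02 and -0.02). SRC, a kinase recruited by activated receptors, was lower with both, from 9.35 FPKM to 5.52 and 5.16 FPKM (log2 fold change -0.67, adjusted P = 3.84e-06, and -0.75, adjusted P = 1.2e-06). Of the 12 tested negative regulators and turnover genes, 1 was lower and 4 higher with si-LINC00673-1, and 1 lower and 2 higher with si-LINC00673-2 (median 0.21 and 0.06). ERRFI1, the feedback inhibitor MIG6 that binds the kinase domain of ERBB receptors, measured 113 to 121.1 FPKM in si-NC, 187.8 to 190.5 with si-LINC00673-1 and 300.6 to 315 with si-LINC00673-2. Its log2 fold change was 0.69 (adjusted P = 1.22e-07, limma) and 1.37 (adjusted P = 8.49e-10), and the siRNAs differed by 0.69 (adjusted P = 1.03e-06). LRIG1, which promotes degradation of ERBB receptors, rose by 0.50 and 0.45 (adjusted P = 1.38e-06 and 1.73e-06). STUB1, the ubiquitin ligase CHIP that acts on ERBB2, was lower by -0.78 and -1.01 (adjusted P = 1.59e-06 and 1.71e-07), and after correction for GC content by -0.35, where it was not called, and -0.58. The members that moved in this list therefore did so in both directions.

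HSP90AA1, the inducible HSP90 chaperone on which ERBB2 protein depends, rose from 361.1 FPKM to 818.7 and 983.4 FPKM (log2 fold change 1.18, adjusted P = 5.98e-09, and 1.44, adjusted P = 5.28e-10). In its list of 4 tested genes that bind or chaperone ERBB2, 1 was lower and 1 higher with each siRNA (median -0.08 and -0.13). The lower gene was the HSP90 co-chaperone CDC37 with si-LINC00673-1 and ERBIN, a scaffold protein that binds ERBB2, with si-LINC00673-2. Of 6 tested transcription regulators of ERBB2, 3 were called higher with si-LINC00673-1 and 2 with si-LINC00673-2, and 0 lower (median 0.30 and 0.04). ELF3, an epithelial ETS factor, measured 71.1 to 76.2 FPKM in si-NC, 105.5 to 109.8 with si-LINC00673-1 and 148.1 to 162.9 with si-LINC00673-2. It rose by 0.54 (adjusted P = 2.26e-06, limma) and 1.08 (adjusted P = 1.7e-08), while ERBB2 was lower in the same libraries. TFAP2C, an AP-2 factor, rose from 1.72 FPKM to 3.19 and 3.34 FPKM (0.62, adjusted P = 0.000103, and 0.67, adjusted P = 4.67e-05).

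**Figure D5:**
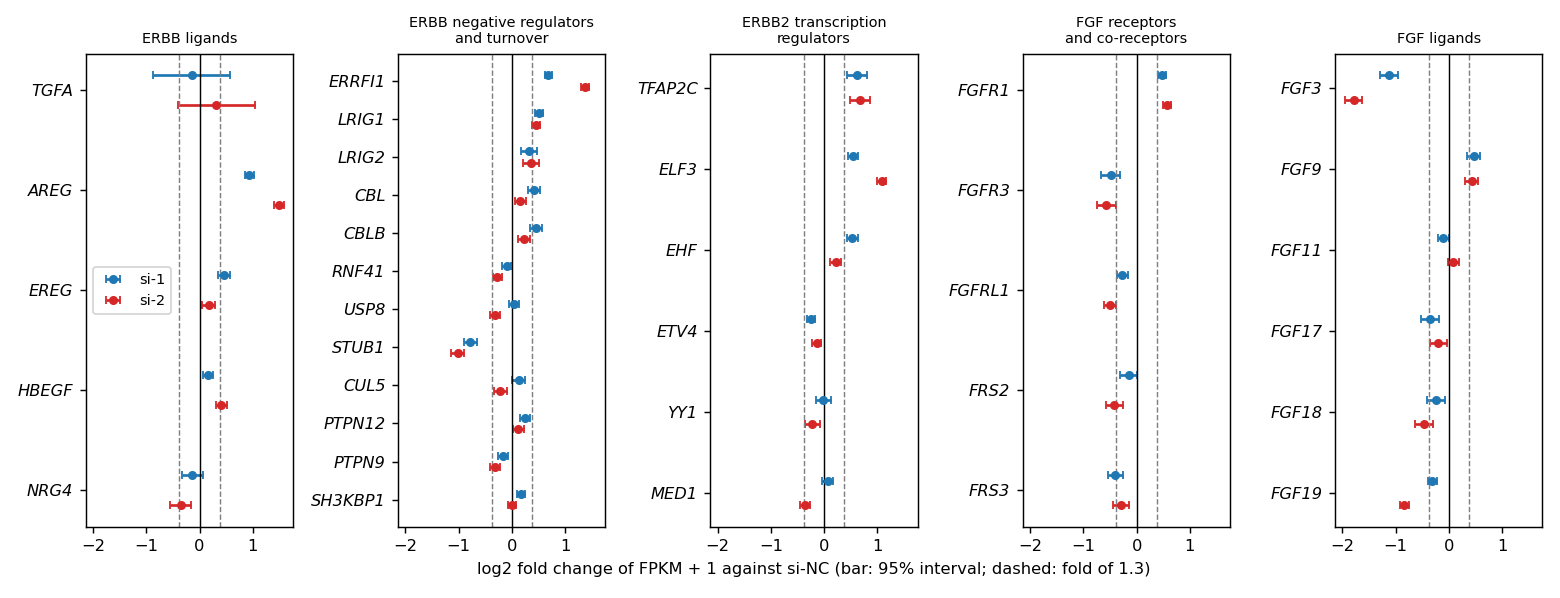
Log2 fold change of FPKM + 1 against si-NC, with 95% intervals from limma, for the tested genes of the ERBB ligand, negative regulator, ERBB2 transcription regulator, FGF receptor and FGF ligand lists; dashed lines mark a fold of 1.3. AREG, ERRFI1 and ELF3 lie to the right with the higher value for si-LINC00673-2, and FGF3 and STUB1 lie to the left.

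Around FGFR4, the other FGF receptors moved in both directions. Of 5 tested genes in the list of receptors and their partners (FGFR1, FGFR3, FGFRL1 and the docking adaptors FRS2 and FRS3, without FGFR4), 2 were lower and 1 higher with si-LINC00673-1, and 3 lower and 1 higher with si-LINC00673-2 (median -0.27 and -0.42). The lower genes were FGFR3 and FRS3 with si-LINC00673-1, and FGFR3, FGFRL1 and FRS2 with si-LINC00673-2. FGFR1 rose from 15.3 FPKM to 21.8 and 23.3 FPKM (0.48, adjusted P = 1.31e-06, and 0.58, adjusted P = 2.37e-07), and thus exceeded FGFR4 in si-LINC00673-2, in which FGFR4 was at 19.1 ± 1.13 FPKM. FGFR3 fell from 12.4 FPKM to 8.54 and 8.03 FPKM (-0.49, adjusted P = 0.000432, and -0.57, adjusted P = 0.000122), and was not called after correction for GC content (-0.20 and -0.25). KLB, the co-receptor through which FGF19 reaches FGFR4, had only 0.123 FPKM in si-NC. Of 6 tested FGF ligands, 1 was lower and 1 higher with si-LINC00673-1, and 3 lower and 1 higher with si-LINC00673-2 (median -0.28 and -0.33). FGF3 measured 33.96, 28.96 and 33.21 FPKM in si-NC, 15.2, 13.8 and 13.6 with si-LINC00673-1 and 7.68, 9.22 and 8.67 with si-LINC00673-2 (log2 fold change -1.12, adjusted P = 1.31e-06, and -1.79, adjusted P = 3.58e-08), and the si-LINC00673-1 value was -0.63 after correction for GC content, where it was still called. FGF9 rose from 1.32 FPKM to 2.21 and 2.12 FPKM (0.47, adjusted P = 5.2e-05, and 0.43, adjusted P = 7.5e-05). FGF19, named here as the FGFR4 ligand after its values were seen, was at 182.3 ± 6.16 FPKM in si-NC, 146.8 FPKM with si-LINC00673-1 (-0.31, adjusted P = 4e-05, not called, and -0.16 after correction for GC content) and 101.5 FPKM with si-LINC00673-2 (-0.84, adjusted P = 4.2e-08).

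Of the 25 tested receptor tyrosine kinases that are not members, 3 were lower and 2 higher with si-LINC00673-1, and 7 lower and 4 higher with si-LINC00673-2 (median -0.04 and -0.10). Over all genes tested, 15.5% were called lower and 11% higher with si-LINC00673-1, and 23% and 10.9% with si-LINC00673-2. EPHB6, an ephrin receptor without kinase activity, fell by 0.89 and 1.03 on the log2 scale (adjusted P = 1.49e-06 and 3.61e-07, limma). MET, the receptor of hepatocyte growth factor, rose from 29.3 FPKM to 43.7 and 39.6 FPKM (0.56, adjusted P = 6.65e-06, and 0.42, adjusted P = 3.39e-05). EGFR, MET and FGFR1 were thus higher with both siRNAs, and ERBB3, FGFR4, EPHB6 and FGFR3 lower.

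Between the siRNAs, 4 of the 8 tested members (40.6% of all genes tested) were lower in each si-LINC00673-2 library than in each si-LINC00673-1 library, and 1 (13.1%) was higher. These were ERBB3, ERBB2, FGFR4 and EGFR on the lower side and GRB7 on the higher. The siRNA with the lower ERBB3, ERBB2 and FGFR4 was therefore also the one with the smaller rise of EGFR. Only ERBB3 passed the fold of 1.3.

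The genes most like each receptor over the 9 libraries were found by the Pearson correlation r of log2(FPKM + 1). These r mainly reflect the 3 groups, since libraries of a group were alike. For ERBB2 they were CEP72 (r = 0.9968), CIAO1 (0.9953) and MICALL2 (0.9943), and 722 genes had r above 0.95. For ERBB3 they included H6PD (0.996) and RWDD2A (0.9959), among 899 such genes. For FGFR4 they were MED25 (0.9971), ZNF324 (0.9969) and the receptor PTK7 (0.9965), among 1179. ERBB2 had r = 0.971 with ERBB3 and 0.963 with FGFR4, which lie on other chromosomes. Within the amplicon ERBB2 had r = 0.887 with PGAP3, 0.71 with STARD3, 0.429 with MIEN1 and 0.18 with GRB7. GRB7 had r = 0.907 with MIEN1.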

How the data were processed

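The table deposited by the authors gives FPKM (fragments mapped to a gene, scaled to its length and to the mapped total), 1 line per gene, rounded to 2 decimals, for 9 libraries sequenced on the BGISEQ-500. Bowtie2 and GRCh37.p13 are named in the submitters' processing notes; the counting tool is not given in the sources used here. The FPKM columns appear 2 times with equal values. The log2 ratios, P-values and Q-values deposited by the authors come from their own comparisons and were not used. The 4 lines without values were left out.

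All 9 libraries were fitted with limma 3.58.1 (R 4.3.3, trend) on log2(FPKM + 1) for genes averaging 1 FPKM or more. The study's limits, a fold of 1.3 and P of 0.05, were applied with Benjamini-Hochberg adjusted P. The file holds no counts, so no count model was fitted. Ratios were taken from FPKM without correction for GC content and compared with two-sided exact permutation tests. The fit was tested on simulated data with independent noise and no shift by GC content or scaling, so that test does not cover such shifts. Depth was estimated by finding the number of fragments that makes low FPKM values whole (mean distance 0.109 of a fragment), so precision is similar in all libraries. Alternatives were another added value, other filters, only the libraries compared, the replicate block, each library left out, median-ratio scaling, GC correction (17017 genes with a GC value, 85.38%) and other limits. Python 3.11.15, pandas 2.3.3, scipy 1.17.1 and matplotlib 3.10.9 were used. The members and lists were chosen with earlier results of these data known. Named genes were all members and, per list, at most 4 genes called in both comparisons in the same direction, those with the largest mean change, the 5 highest receptor tyrosine kinases and, per receptor, the 3 genes of highest r. LINC00673 itself and 1 of the genes of highest r are not reported here.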

Additional observations from a re-analysis of the deposited data

Results flagged for a closer look

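For 5 of the 8 tested members the effects of the 2 siRNAs differed by limma's test of the difference itself (adjusted P at most 0.05). The share of all genes tested that passed this limit without a fold limit was not determined, so the count has no background. Counted by separation instead, all si-LINC00673-2 libraries lay below all si-LINC00673-1 libraries in 40.6% of genes tested and above them in 13.1%. The log2 difference of si-LINC00673-2 against si-LINC00673-1 was -0.50 for ERBB3 (adjusted P = 1.1e-05), the only one called at a fold of 1.3. It was -0.20 for ERBB2 (adjusted P = 0.00472) and -0.18 for FGFR4 (adjusted P = 0.0136), both lower with si-LINC00673-2. For EGFR it was -0.31 (adjusted P = 0.0225), so the rise was smaller with si-LINC00673-2. For GRB7 it was 0.26 (adjusted P = 0.000916), as GRB7 was lower than si-NC with si-LINC00673-1 and near it with si-LINC00673-2. The count depends on the processing: after correction for GC content MIEN1 (0.21, adjusted P = 0.00194, limma) and STARD3 (0.17, adjusted P = 0.0072) passed the limit as well.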

How the results depend on the processing

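The number of tested members called, 5 and 5 against si-NC and 1 between the siRNAs, was 4 to 5, 5 to 5 and 1 to 1 with each library left out; the lowest value, without si-NC replicate 3, lost STARD3. It was 3, 3 and 1 at a minimum of 5 FPKM, where fewer members were tested, 2, 2 and 1 after correction for GC content, 2, 3 and 0 at a fold of 1.5, and 2 between the siRNAs with 0.1 FPKM added, where EGFR (-0.45) was called as well. The genes called in all, 3413, 4372 and 951, became 2208, 2712 and 545 at 5 FPKM and 1563, 2261 and 214 at a fold of 1.5; those between the siRNAs became 1565 with 0.1 FPKM added and 572 after correction for GC content. With si-LINC00673-2 against si-NC, GRB7 (-0.02, not called) turned to 0.0766 by the median ratio and 0.218 by GC content and lay between -0.0563 and 0.0112 with each library left out, and MIEN1 (-0.09, not called) turned to 0.0121 and 0.0181 by the median ratio and GC content. PGAP3 between the siRNAs (-0.02, not called) turned to 0.0514 and 0.0175 by these and lay between -0.0902 and 0.0248 with each library left out. The cause of these changes was not tested. The ERBB3 calls and the EGFR calls against si-NC held in each alternative in which the gene was tested, apart from the fold of 1.5, at which ERBB3 with si-LINC00673-1 (-0.56) and between the siRNAs (-0.50) and EGFR with si-LINC00673-2 (0.51) fell short.

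The replicate labels repeat in each group, but same-numbered libraries did not deviate together (r from -0.239 to 0.104 over the pairs of groups). With 3 libraries per group, these r cannot show whether same-numbered libraries shared a culture or a day. With the replicate block 3417, 4379 and 949 genes were called, and no call of a member changed. Depth limits TCAP and ERBB4 most.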
